A study of Mus musculus with 5 samples.

Results

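The genes described here are the nuclear-encoded members of respiratory complexes II, III, IV and V. They were taken as every row shared by the 5 expression tables whose symbol starts with Sdh, Uqcr, Cox4i, Cox5, Cox6, Cox7, Cox8 or Atp5. Of the 13711 shared genes, 50 met this rule, with 8 in complex II, 8 in complex III, 17 in complex IV and 17 in complex V. A further gene with such a symbol, Cox8c, was listed in 1 table only and was left out. The prefixes also took in 4 assembly factors of complex II (Sdhaf1, Sdhaf2, Sdhaf3 and Sdhaf4) and Cox7a2l, a factor that joins complexes into supercomplexes. They left out the subunits Cyc1 and Ndufa4, which are given further on beside the other genes of the pathway.

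The data were Visium spatial transcriptomes, in which polyadenylated RNA is captured on a slide with a grid of barcoded spots that each hold several cells. All 5 transverse heart sections came from Wildtype C57BL/6 mice that were operated on postnatal day 1, either with ligation of the left anterior descending artery to cause a myocardial infarction (MI) or with sham surgery. Sections were cut 200 µm below the suture. Day 3 after surgery had 1 sham and 1 MI section, and day 7 had 1 sham section and 2 MI replicates. The study's supplement calls the replicated MI sections biologically independent and every other section a single biological sample. The groups with 1 section therefore have no error of their own.

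The respiratory chain sits in the inner mitochondrial membrane. Complex II (succinate dehydrogenase) and complex III (the cytochrome bc1 complex) pass electrons on towards cytochrome c, complex IV (cytochrome c oxidase) hands them to oxygen, and complex V (ATP synthase) uses the proton gradient to make ATP. All subunits of complex II are encoded in the nucleus, whereas complexes III, IV and V also hold a few subunits from mitochondrial DNA, which were not among the members. Some complex IV subunits exist as a pair of isoforms. Cox6a2, Cox7a1 and Cox8b are the forms of heart and skeletal muscle, Cox6a1, Cox7a2 and Cox8a are found in most tissues, and Cox4i2 is an alternative to Cox4i1 that is best known from lung and low oxygen. The heart relies on this chain for its energy, and its content of mitochondria grows in the weeks after birth.

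The isoform pairs carry several of the results, and the promoters of Cox6a1, Cox8a and Cox8b are shown as the isoforms of the Cox6a and Cox8 pairs that had an entry in the promoter table. Each sequence is from RefSeq on GRCm38.p6 and runs 5′ to 3′ along the gene's strand, from 250 bases before the transcription start to 50 bases after it. Capitals mark a match to any of 4 motifs of factors known for respiratory genes, searched on both strands: AAGGTCA of the oestrogen-related receptors, CCGGAAG of GABP and other ETS factors, ATGGCGG of YY1 and GCATGCG of nuclear respiratory factor 1. The regions are chr5:115348909-115349208 (minus strand) for Cox6a1, chr19:7217567-7217866 (minus strand) for Cox8a and chr7:140900397-140900696 (minus strand) for Cox8b.
Cox6a1: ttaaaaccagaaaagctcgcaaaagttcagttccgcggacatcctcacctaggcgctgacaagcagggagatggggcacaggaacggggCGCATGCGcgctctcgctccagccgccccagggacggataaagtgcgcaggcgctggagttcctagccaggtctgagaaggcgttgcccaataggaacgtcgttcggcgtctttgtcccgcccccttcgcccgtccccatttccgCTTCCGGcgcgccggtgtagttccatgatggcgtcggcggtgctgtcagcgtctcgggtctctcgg
Cox8a: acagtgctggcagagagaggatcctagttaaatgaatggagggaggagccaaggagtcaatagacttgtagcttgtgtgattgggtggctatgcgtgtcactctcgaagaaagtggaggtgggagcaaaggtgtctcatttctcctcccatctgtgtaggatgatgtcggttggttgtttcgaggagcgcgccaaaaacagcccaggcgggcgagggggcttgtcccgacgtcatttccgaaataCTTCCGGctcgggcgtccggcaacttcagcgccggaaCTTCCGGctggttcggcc
Cox8b: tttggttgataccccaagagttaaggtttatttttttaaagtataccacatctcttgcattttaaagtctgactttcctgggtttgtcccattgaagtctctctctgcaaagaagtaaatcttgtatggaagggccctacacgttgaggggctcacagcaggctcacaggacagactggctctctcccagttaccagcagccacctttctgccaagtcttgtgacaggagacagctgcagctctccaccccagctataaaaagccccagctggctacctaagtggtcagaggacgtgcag
In Cox6a1 the capitals mark the GCATGCG core, which matched on both strands at overlapping positions, and 1 ETS match. Cox8a held 2 ETS matches, and Cox8b, Cox7a1 and Cox7a2 held no match to any of the 4 motifs in this window. Promoters of the table matched 39 of the 50 members by symbol. Of these 39, 16 (41.0%) held CCGGAAG, against 8.86% of all 32851 promoters of the same length. GCATGCG was found in 8 members (20.5%, against 3.58% of all promoters), AAGGTCA in 5 (12.8%, against 4.72%) and ATGGCGG in 3 (7.69%, against 4.05%). A match is a run of letters and not a shown binding site.

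The members covered a wide range of levels. Values were scaled in each spot to CPM (counts scaled to a fixed total, as is usual for sequencing) with the mitochondrial mt- genes left out of the total, and spots were averaged per section. Of the tables used here, the one of sham day 3 held raw counts. There, the members reached from 2 unique molecular identifiers (UMIs, counted molecules) for Cox7b2, with an exact Poisson 95% interval of 0.242 to 7.22, to 55460 UMIs for Cox6c. Cox7b2, known from testis, stayed between 0.196 and 0.536 CPM in the 5 sections and did not pass the filter of at least 1 CPM in at least 2 sections, which left 49 members in the tests. Cox4i2 (10.2 to 14.9 CPM), Cox6b2 (10.1 to 26.1 CPM) and Sdhaf3 (13.5 to 19.0 CPM) were low, and the other members exceeded 48 CPM in every section. Median raw UMIs per spot ran from 20842.5 to 53940 and spots per section from 376 to 960. The mt- genes, left out of the totals, made up 24.7% of values in MI day 7 replicate 1, which was also the deepest section, and 13.8% to 15.8% in the other sections. Between 2 and 19 spots of a section held fewer than 5000 raw UMIs, and 10 spots of the MI day 3 section, 5 of MI day 7 replicate 1 and 6 of replicate 2 lay apart from the tissue with no neighbour. Without the shallow and detached spots, the members' share of values in sham day 3, MI day 3, sham day 7 and MI day 7 replicates 1 and 2 was 9.49%, 8.13%, 11.04%, 10.62% and 10.19%.

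**Figure D1:**
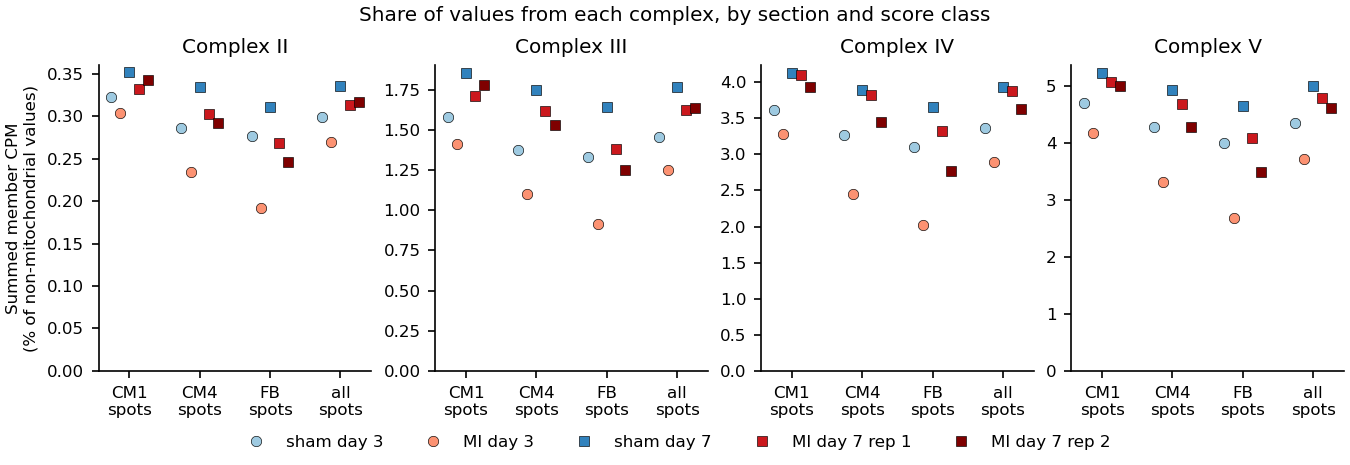
Summed CPM of the members of each complex as a percentage of all non-mitochondrial values (y axis, from 0), by score class of the spots (x axis); each point is the mean over spots of 1 section, circles are day 3 and squares day 7. For each complex, sham day 7 was the highest and MI day 3 the lowest section among all spots.

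The share of values from the 4 complexes together was 9.48% in sham day 3, 8.13% in MI day 3, 11.04% in sham day 7, and 10.62% and 10.19% in MI day 7 replicates 1 and 2, as the plot of complex shares shows. The 2 MI day 7 sections averaged 10.4% ± 0.305 (SD, n = 2), and sham day 7 lay above both. Complex II, the smallest, gave 0.300%, 0.270%, 0.336%, 0.314% and 0.316% in the same order. Complex III gave 1.45%, 1.252%, 1.77%, 1.63% and 1.64%. Complex IV gave 3.36% in sham day 3 and 2.89% in MI day 3, and complex V 4.36% and 3.72%. At day 7 complex IV gave 3.94% in the sham section and 3.75% ± 0.181 (SD, n = 2) in the MI sections, and complex V 4.9996% and 4.70% ± 0.135 (SD, n = 2). In all 4 complexes the 3 day 7 sections lay above both day 3 sections. In complexes II and III the 2 MI day 7 sections differed by less than in complexes IV and V.

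The sections also differed in the markers of cell types. The summed CPM of 8 cardiomyocyte markers (such as Tnnt2 and Myh6) was 36974 in sham day 3 and 41004 in sham day 7, and 32684, 41802 and 38291 in MI day 3 and the 2 MI day 7 sections. The 7 fibroblast markers (such as Col1a1) summed to 4984 and 5304 in the sham sections and to between 6466 and 8153 in the MI sections. The 7 macrophage markers summed to 121 and 133 in the sham sections and to 1025, 223 and 294 in the MI sections. The 3 atrial markers, mostly Nppa, summed to 820 and 397 in the sham sections and to 9156, 220 and 1473 in the MI sections. The 5 blood markers (haemoglobin genes and Alas2) summed to 5349 and 8259 in the sham sections and to 13340, 11393 and 12920 in the MI sections, without overlap. Among the cardiomyocyte markers Tnni3 ranged from 2949 to 5661 CPM, Myh6 from 6525 to 10116 CPM and Tnnt2 from 6067 to 6334 CPM, each lowest in MI day 3. Pln and Ryr2 were instead lowest in MI day 7 replicate 2, with 3505 and 399 CPM against 3748 and 415 CPM in MI day 3. The authors' label-transfer scores of cell type, summed over the cardiomyocyte states, averaged 58.2% and 51.8% per spot after sham surgery and 69.4%, 63.5% and 71.7% after MI, and so were higher in MI. With haemoglobin genes also left out of the total, the median MI against sham estimate of the members described next was -0.12, as it was with them. The part of the other shifts in the members' values was not tested. In spots of mixed cells, fewer cardiomyocytes and less RNA per cardiomyocyte cannot be told apart.

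The first question was whether the infarct changed the members. Across days, with day as a covariate, no member passed an adjusted p of 0.05 (limma on log2(CPM + 1), Benjamini-Hochberg over 13136 genes), and 0.00761% of all genes did. The estimate was below 0 for 45 of the 49 members, against 45.8% of all genes, with a median log2 change of -0.12 against 0.02 for all genes. An unadjusted p under 0.05 was reached by 4 members, all lower in MI (against 3.29% of all genes), namely Cox8b, Atp5md, Atp5g1 and Uqcrb, and by 0 to 7 members under the alternatives. The lowest adjusted p of a member was 0.407. All 8 members of complex II, all 8 of complex III and all 17 of complex V had estimates below 0, and the 4 above 0 were Cox4i2, Cox6a1, Cox6b2 and Cox8a of complex IV.

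Of the 49 members, 32 were lower in every MI section than in the sham section of the same day, against 17.7% of all genes. A stricter order, with every MI section below both sham sections, held for 5 members, or 10.2%, against 7.78% of all genes, a share near the background that is no result about the members. These were Atp5g1, Atp5g2, Atp5g3, Sdhc and Sdhaf3. The 3 Atp5g genes encode the same subunit c, the ring of ATP synthase, with different import sequences. Atp5g1 measured 2251 CPM in sham day 3 and 2418 in sham day 7, and 1722, 1954 and 2207 in MI day 3 and MI day 7 replicates 1 and 2. The MI sections lay below the sham sections without overlap, and the log2 change was -0.29 ± 0.12 (SE), with an adjusted p of 0.447 by limma. Atp5g3 measured 3516 and 3602 CPM under sham surgery and 3097, 3439 and 3326 in the MI sections. Atp5g2 was apart by a narrow margin, with 826.7 and 826.2 CPM in sham and 824.4, 759.9 and 788.3 CPM in MI. Sdhc, a membrane anchor of complex II, measured 634 and 615 CPM under sham surgery and 570, 587 and 612 in the MI sections.

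Cox8b had the largest negative estimate, -0.33 ± 0.12 (SE, adjusted p = 0.407 by limma). It measured 1931 CPM in sham day 3, 1349 in MI day 3, 2446 in sham day 7, and 2128 and 2136 in the MI day 7 sections. The MI day 7 sections lay above sham day 3, so operation and day overlapped. At day 3 alone, with 1 section per group and no test, 45 of 49 members were lower in MI, against 49.5% of all genes, and the median log2 ratio was -0.18 against 0.00 for all genes. Cox8b was the member with a log2 ratio at or below -0.5, which 4.82% of all genes reached. The 4 members higher in MI day 3 were Cox6a1 (978 against 819 CPM), Cox8a (1604 against 1395 CPM), Cox7a2l (475 against 444 CPM) and Cox6b2 (26.1 against 24.6 CPM).

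At day 7 the contrast rested on the 2 MI sections and 1 sham section, with 1 residual degree of freedom. No member and no other gene passed (0% of all genes, limma). At an unadjusted p under 0.05 the count was 0 for members and 5.17% for all genes. The estimate was below 0 for 40 of 49 members, against 43.6% of all genes, with a median of -0.09 against 0.03. With mt- genes kept in the total the medians were -0.18 and -0.04, so that relative to all genes the members' median was -0.12 in the main scaling and -0.14 in this one. Among members of at least 50 CPM with every MI section below both sham sections, Atp5g1, Atp5g2 and Atp5g3 had the largest negative estimates, at -0.22, -0.09 and -0.09. That order also draws on the day 3 sections. Without it, Sdhaf1 (-0.32), Atp5md (-0.26), Atp5k (-0.25) and Uqcrb (-0.25) had larger falls than Atp5g1, each lower in both MI day 7 sections.

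The scores of the authors allowed the comparison to be made within 1 class of spots. Each spot carries 11 label-transfer scores, which estimate its make-up of cell types: fibroblast (FB), macrophage, epicardial, pericyte or smooth muscle, endocardial (EndoEC) and endothelial (EC) cells, and cardiomyocytes in 5 states from CM1 to CM5. A spot was called dominant for the type with its highest score. In CM1-dominant spots, between 211 and 491 per section, no member passed (limma, 12968 genes; 0.123% of all genes passed). The estimate was below 0 for 43 of 49 members (45% of all genes), with a median of -0.08 against 0.02. Without sham day 7 the member median was -0.14, and with mt- genes kept in the total it was -0.15 against -0.04. Atp5g1 had 2452 and 2556 CPM under sham surgery and 1967, 2103 and 2378 in the MI sections, a log2 change of -0.25 ± 0.10 (SE, adjusted p = 0.459 by limma). Cox7a2 and Atp5g3 were also lower in every MI section, with estimates of -0.11 and -0.09. Cox4i2 had the highest estimate, 0.43 ± 0.17 (SE, adjusted p = 0.444 by limma), at levels of 8.87 to 14.8 CPM. The make-up of these spots was not the same in the 2 operations. In sham day 3 and sham day 7 the fibroblast markers summed to 3185 and 3488 CPM, the blood markers to 4611 and 7630 and the macrophage markers to 72.4 and 88.1. In MI day 3 and MI day 7 replicates 1 and 2 they reached 4200, 4800 and 4935 CPM, 13469, 12025 and 12370 CPM, and 344, 175 and 116 CPM, each above both sham sections. Atrial markers were 4087, 97.2 and 514 CPM in the CM1 spots of those MI sections, against 766 and 323 CPM under sham surgery. With haemoglobin genes also left out of the total, the member median was -0.07. The part of the other markers was not tested.

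**Figure D2:**
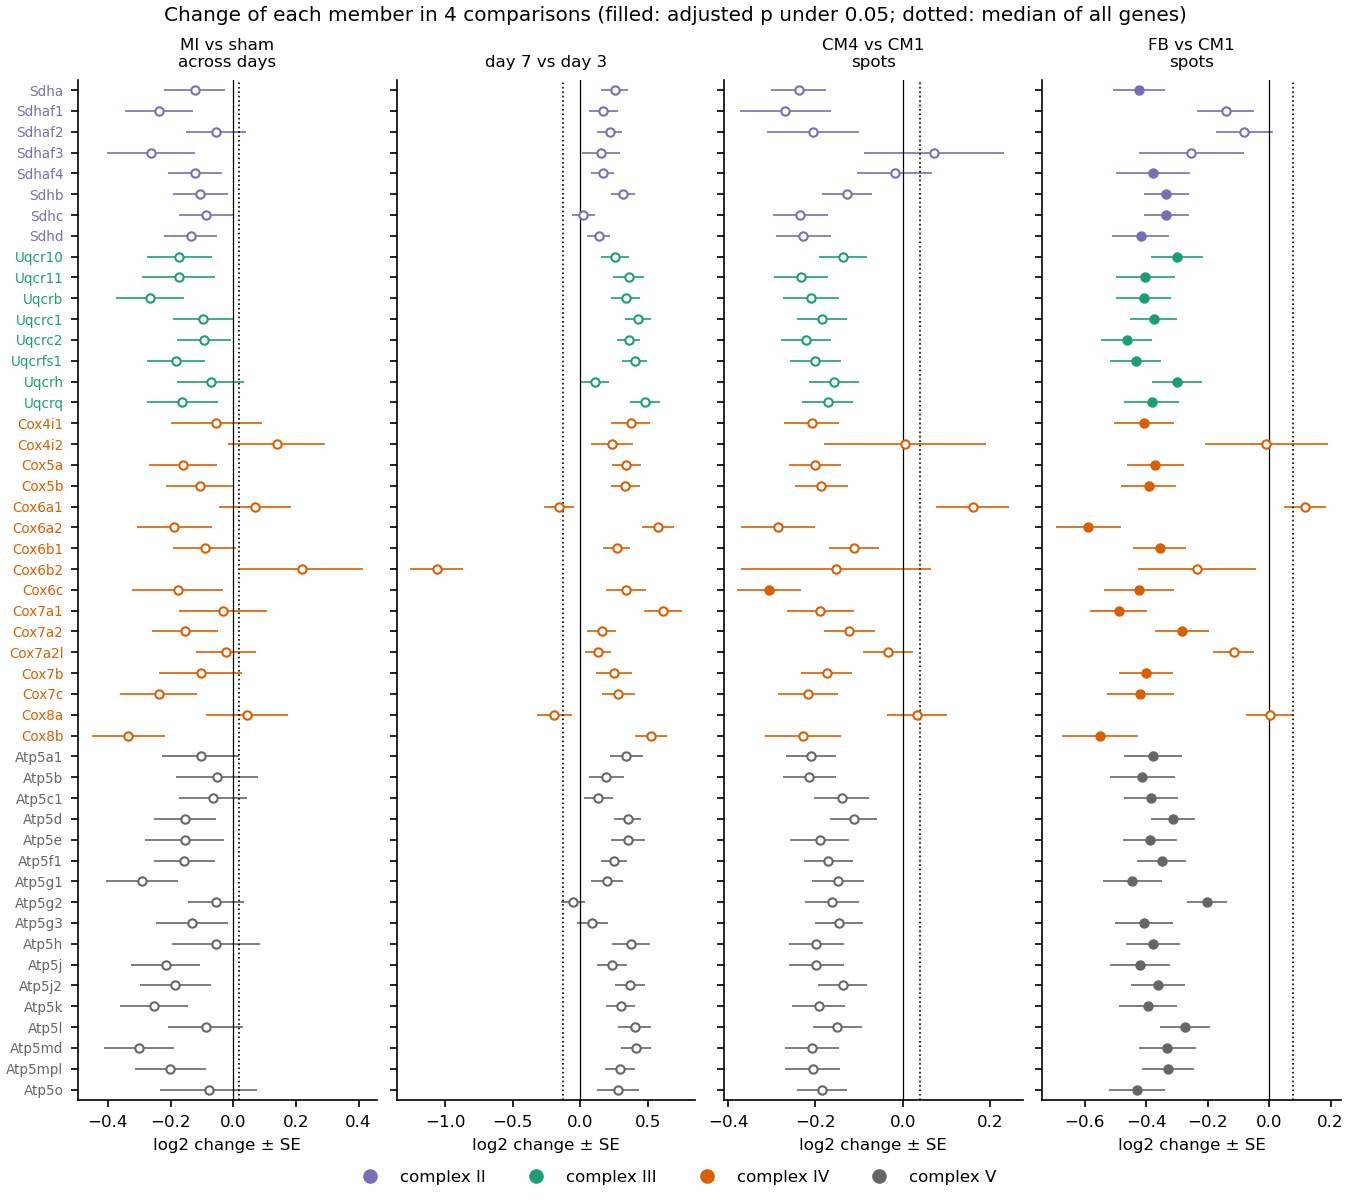
Log2 change (x axis, ± SE) of the 49 tested members (y axis, coloured by complex) in 4 limma comparisons; filled points have an adjusted p under 0.05, the solid line is 0 and the dotted line the median of all genes. Filled points appear for Cox6c in CM4 against CM1 spots and for 41 members in FB against CM1 spots.

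The second question was how the members stood at day 7 against day 3, with operation as a covariate. No member passed the adjusted threshold (1.44% of all genes did), but 26 members were higher at an unadjusted p under 0.05, against 5.79% of all genes. The estimate was above 0 for 45 of 49 members, against 29.8% of all genes, and the median was 0.28 against -0.13 for all genes. Under median-of-ratios scaling the median of all genes moved by 0.12 to -0.01, the median of members was 0.41, and 3 members passed as higher, against 1.28% of all genes: Cox6a2, Uqcrc1 and Uqcrfs1. Relative to all genes, the members' median was 0.41 higher in the main scaling and 0.42 higher in this one. At an unadjusted p under 0.05 this scaling gave 40 members as higher (11.4% of all genes). With mt- genes kept in the total only 9 members were higher at that p (3.33% of all genes), with a median of 0.22 against -0.18. Without sham day 3 the count was 16 (5.16%), without sham day 7 it was 15 (5.1%) and without MI day 7 replicate 2 it was 9 (3.98%). Without the MI day 3 section the median was 0.21 and 1 member was higher at an unadjusted p under 0.05, against 2.87% of all genes. Without MI day 7 replicate 1, Cox7a1 passed as higher (adjusted p = 0.0431 by limma, 0.872% of all genes) and Cox6b2 as lower (adjusted p = 0.0406, 1.72% of all genes).

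Every day 7 section lay above both day 3 sections for 32 of 49 members (9.32% of all genes). The muscle isoforms had the largest estimates. Cox7a1 measured 1020 CPM in sham day 3, 900.4 in MI day 3, and 1408, 1686 and 1309 in sham day 7 and the MI day 7 replicates 1 and 2, a log2 change of 0.61 ± 0.14 (SE, adjusted p = 0.0844 by limma). Cox6a2 measured 2419 and 1907 CPM at day 3 and 3234, 3011 and 3148 at day 7, a log2 change of 0.57 ± 0.12 (SE, adjusted p = 0.0754). Cox8b had a log2 change of 0.52 ± 0.12 (SE, adjusted p = 0.0821). For each of the 3, the day 3 and day 7 sections did not overlap.

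Cox6a1, Cox8a and Cox7a2 did not share this order. Cox6a1 measured 819 and 978 CPM at day 3 and 836, 756 and 837 at day 7, so the days overlapped, and its estimate was -0.16 ± 0.11 (SE, adjusted p = 0.412 by limma). Cox8a measured 1395 and 1604 CPM at day 3 and 1361, 1171 and 1428 at day 7, with an estimate of -0.19 ± 0.13 (SE). Cox7a2, with 2250 and 1928 CPM at day 3 and 2395, 2277 and 2182 at day 7, had an estimate of 0.16 ± 0.11 (SE). Cox4i1, the main form of subunit 4, did share it and measured 4082 and 3598 CPM at day 3 and 4843, 5471 and 4549 at day 7, with 0.38 ± 0.15 (SE). The remaining estimates below 0 were those of Atp5g2 (-0.05) and Cox6b2, a form known from testis, which measured 24.6 and 26.1 CPM at day 3 and 10.1, 10.3 and 16.1 at day 7 (-1.06 ± 0.20 SE, adjusted p = 0.0629 by limma). It was the 1 member lower at an unadjusted p under 0.05, as were 19.8% of all genes.

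By complex, 7 of 8 members of complex III, 10 of 17 of complex V, 7 of 16 of complex IV and 2 of 8 of complex II were higher at day 7 at an unadjusted p under 0.05. Of all genes, 5.79% were higher at that p. As given above, fewer members were with mt- genes kept in the total, and the median of all members was 0.21 without MI day 3. The median log2 changes of complexes III, V, IV and II were 0.36, 0.30, 0.28 and 0.17. In complex III, Uqcrc1 and Uqcrfs1 (a core protein and the Rieske iron-sulphur protein) had estimates of 0.43 and 0.40. The 47 genes with Nduf symbols, which encode mostly complex I, had a median of 0.33.

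The isoform ratios were compared as log2 ratios per section, since UMI counts are not corrected for transcript length and levels are not set side by side between genes. The log2 ratio of Cox6a2 to Cox6a1 was 1.56 in sham day 3, 0.96 in MI day 3, 1.95 in sham day 7, and 1.99 and 1.91 in the MI day 7 sections. The 3 day 7 sections lay close together and the MI day 3 section was the lowest. Cox8b to Cox8a was also lowest in MI day 3, with 0.47, -0.25, 0.84, 0.86 and 0.58, and here MI day 7 replicate 2 lay nearer to sham day 3 than to the other day 7 sections. Cox7a1 to Cox7a2 was -1.14 and -1.10 in the day 3 sections and -0.77, -0.43 and -0.74 in the day 7 sections, without the low value of MI day 3. Cox4i2 to Cox4i1 stayed between -8.66 and -8.33.

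Within day 3, with no replicate, the MI minus sham difference was -0.60 for Cox6a2 to Cox6a1, -0.72 for Cox8b to Cox8a, 0.0436 for Cox7a1 to Cox7a2 and 0.0927 for Cox4i2 to Cox4i1. Within day 7 the differences were 0.00, -0.12, 0.18 and 0.27 in that order, and that of the Cox6a pair was near 0. The means of both days were -0.30, -0.42, 0.11 and 0.18, and the exact permutation p within day (two-sided, 6 splits, smallest possible p 0.333) was 0.667, 0.667, 0.333 and 0.333. With day ignored, so that the MI mean holds more day 7 sections than the sham mean, the ratios differed by -0.13 for Cox6a2 to Cox6a1, 0.20 for Cox7a1 to Cox7a2, -0.26 for Cox8b to Cox8a and 0.17 for Cox4i2 to Cox4i1. Over these 4 comparisons the exact permutation p (two-sided, 10 splits, smallest possible p 0.2) was 1, 0.4, 1 and 0.4, and adjusted 1, 0.8, 1 and 0.8. Leaving out MI day 3 turned the sign of the difference for the Cox6a and Cox8 pairs, and leaving out sham day 7 did so for the Cox6a pair. As a description, the mean of the 3 day 7 sections exceeded the mean of the 2 day 3 sections by 0.69, 0.47 and 0.65 for the pairs of Cox6a, Cox7a and Cox8.

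**Figure D3:**
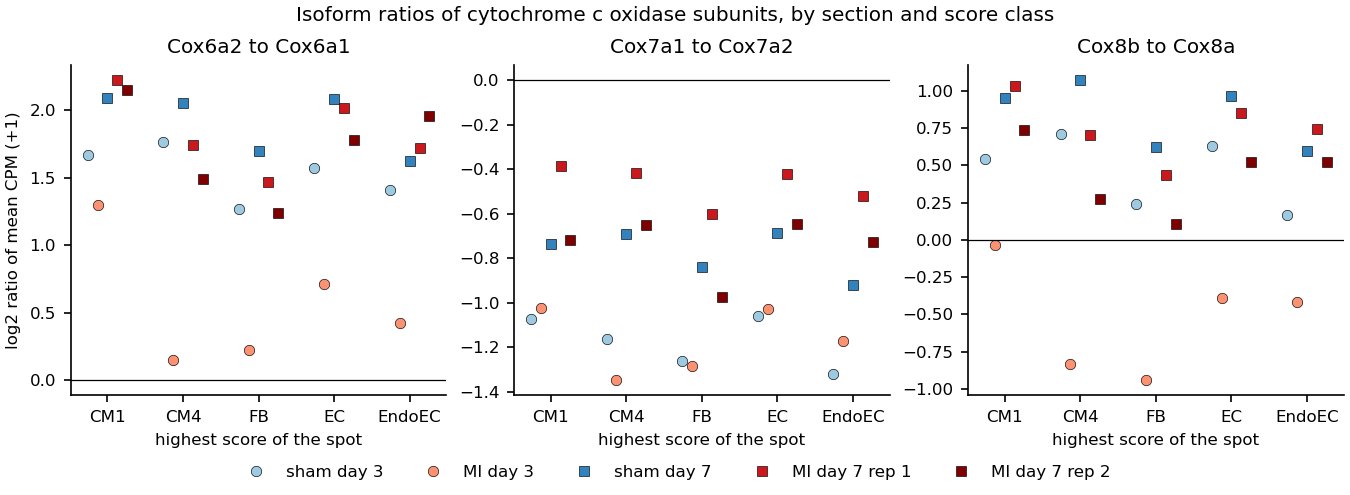
Log2 ratio of the mean CPM (+ 1) of the muscle isoform to that of the other isoform (y axis) in spots of 5 score classes (x axis); each point is 1 section, circles day 3 and squares day 7, and the line is a ratio of 1 to 1. In MI day 3 the Cox6a2 to Cox6a1 ratio was 1.30 in CM1 spots but 0.15 in CM4 and 0.22 in FB spots.

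By class, the ratio of Cox6a2 to Cox6a1 in sham hearts was similar in CM1 and CM4 spots, at 1.67 and 1.77 on day 3 and 2.09 and 2.05 on day 7. In MI sections it was lower in CM4 spots, at 0.15 against 1.30 in CM1 spots on day 3, and at 1.74 against 2.22 and 1.49 against 2.15 in the 2 sections of day 7. Cox8b to Cox8a was higher in CM4 spots of both sham sections, with 0.71 against 0.54 in CM1 spots on day 3 and 1.07 against 0.95 on day 7. It was lower in CM4 spots of the MI sections, with -0.83 against -0.03 in MI day 3. In MI day 7 it was 0.70 against 1.03 in replicate 1 and 0.27 against 0.74 in replicate 2. The CM4 minus CM1 difference of Cox7a1 to Cox7a2 was -0.32 in MI day 3 and between -0.09 and 0.07 in the other sections. FB spots also differed from CM1 spots by more in the MI sections. The FB minus CM1 difference of Cox6a2 to Cox6a1 was -0.40 and -0.39 in sham day 3 and sham day 7. In MI day 3 and MI day 7 replicates 1 and 2 it was -1.08, -0.76 and -0.91. For Cox8b to Cox8a it was -0.30 and -0.33 under sham surgery and -0.91, -0.60 and -0.63 in the MI sections. No test compared the pairs. The plot of isoform ratios by class shows the MI day 3 section apart in the Cox6a and Cox8 panels.

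CM4 is the cardiomyocyte state of the neonatal heart that the study follows after injury, and the members were compared between CM4-dominant spots (40 to 86 per section) and CM1-dominant spots with the section as a block. The scores were made from the same expression values, so these calls describe the classes and are no independent test. The estimate was below 0 for 45 of 49 members, against 41.7% of all genes, with a median of -0.19 against 0.04. At an unadjusted p under 0.05, 38 members were lower and none higher, against 4.45% of all genes lower and 9.3% higher. With mt- genes kept in the total, 16 were lower at that p (2.4% of all genes), with a median of -0.16 against 0.06. In the main scaling 38 members were lower in every section (4.42% of all genes). At the adjusted threshold 1 member passed (0.141% of all genes passed as lower). This was Cox6c, a small nuclear subunit of complex IV, with 6165, 5255, 6780.5, 6951 and 6561 CPM in CM1 spots and 5365, 3410, 6104, 6393 and 4855 CPM in CM4 spots of sham day 3, MI day 3, sham day 7 and MI day 7 replicates 1 and 2. Its log2 change was -0.31 ± 0.07 (SE, adjusted p = 0.0478 by limma), and it missed the threshold under 10 of 14 alternatives, with adjusted p between 0.026 and 0.334. With median-of-ratios scaling 3 members passed as lower (0.61% of all genes), and 3 did without MI day 3 (0.128%). Cox6a2 and Sdhaf1, the largest differences after Cox6c with 1 sign in every section, had estimates of -0.29 and -0.27.

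The medians by complex were -0.22, -0.19, -0.18 and -0.18 for complexes II, III, IV and V, close to the -0.15 of the Nduf genes. The spots of the 2 classes also differed in markers. Summed cardiomyocyte markers were 31190 to 41040 CPM in CM4 spots and 37140 to 43874 in CM1 spots over the 5 sections, and lower in CM4 in each section. Fibroblast markers were 5375 to 9066 CPM in CM4 spots and 3185 to 4935 in CM1 spots. Atrial markers were 25156 against 4087 CPM in MI day 3, 450 against 97.2 and 5158 against 514 in MI day 7 replicates 1 and 2, and 503 against 766 and 441 against 323 in sham day 3 and day 7. Over all spots this sum was mostly Nppa, which the paper names a marker of cardiac stress. Nppa measured 9028 CPM in MI day 3 and 704 in sham day 3, Myl7 47.9 and 26.0, and Myl4 79.9 and 90.1. Macrophage markers were higher in CM4 spots of every section, with 1124 against 344 CPM in MI day 3 and 125 to 244 against 72.4 to 175 CPM in the others. Haemoglobin and other blood markers stood out in the CM4 spots of sham hearts, with 11226 CPM on day 3 and 25192 on day 7, against 4611 and 7630 in CM1 spots. In MI hearts they had 7248, 12228 and 12533 CPM in CM4 spots, against 13469, 12025 and 12370 in CM1 spots. With haemoglobin genes also left out of the total, the median was -0.18 and Cox6c did not pass. The part of the other markers was not tested.

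Whether the class difference itself differed with the operation was tested as an interaction, on the CM4 minus CM1 difference of each section. Of the 49 members, 1 passed, Cox6a1 (0.529% of all genes passed in this direction, limma). In CM1 spots Cox6a1 measured 850 and 821 CPM in the sham sections and 954, 707 and 783 in MI day 3 and the 2 MI day 7 sections. In CM4 spots it measured 720 and 798 CPM under sham surgery and 1202, 852 and 1091 in the MI sections. It was thus lower in CM4 spots in both sham sections and higher in all 3 MI sections. The interaction was 0.48 ± 0.11 on the log2 scale (SE, adjusted p = 0.0312). It did not pass under median-of-ratios scaling (0.40, adjusted p = 0.170), where only spots with a highest score of at least 0.5 were used (0.57, adjusted p = 0.0504) or without MI day 7 replicate 2 (0.44, adjusted p = 0.224).

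Cox8a moved in the same direction without passing, with CM4 minus CM1 differences of -0.20 and -0.11 under sham surgery and 0.02, 0.17 and 0.29 in the MI sections. Its interaction was 0.29 ± 0.10 (SE, adjusted p = 0.202 by limma). The muscle isoforms went the other way. Cox8b had differences of -0.04 and 0.01 under sham surgery and -0.78, -0.16 and -0.17 in the MI sections, an interaction of -0.42 ± 0.11 (SE, adjusted p = 0.0824). Cox6a2 had -0.14 and -0.08 under sham surgery and -0.81, -0.21 and -0.18 in the MI sections, an interaction of -0.35 ± 0.11 (SE, adjusted p = 0.154). As lower, 0 members passed (0.223% of all genes), but 9 did without sham day 7, where 4.85% of all genes passed as lower, and 5 without MI day 7 replicate 1, where 0.478% did.

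**Figure D4:**
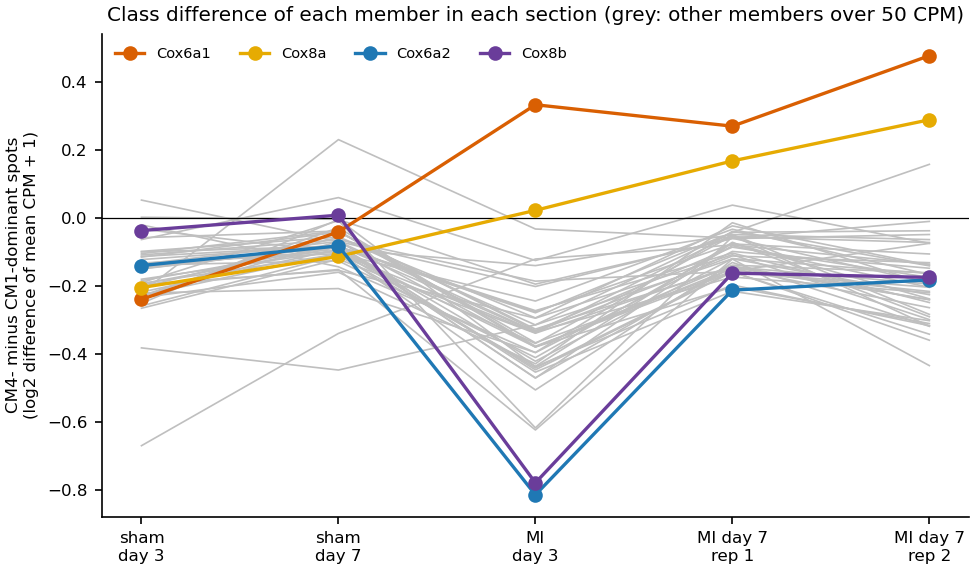
CM4- minus CM1-dominant difference of each member over 50 CPM (y axis, log2 of mean CPM + 1) in each of the 5 sections (x axis); grey lines and the 4 coloured lines join the values of 1 gene. Cox6a1 and Cox8a lie above 0 in the 3 MI sections and below 0 in the 2 sham sections, whereas Cox8b and Cox6a2 are lowest in MI day 3.

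Sdhaf1 and Sdhaf2 also had higher differences in every MI section than in both sham sections (interactions 0.37 and 0.32), and Atp5e, the epsilon subunit of ATP synthase, had lower ones (-0.33). The median interaction of the members was -0.12, with 43 of 49 below 0 (39.7% of all genes), against 0.10 for all genes. Without sham day 7 the member median was -0.19, and without sham day 3 or without MI day 3 it was -0.08. With mt- genes kept in the total, the median of all genes moved by 0.18 to 0.28, that of the members turned to 0.08, 13 members were below 0 and 2 passed as higher, against 3.75% of all genes, a share near the background. Relative to all genes, the members' median was -0.21 in the main scaling and -0.19 in this one. Some marker values of the CM4 spots also differed between MI and sham. The atrial list, mostly Nppa, had 25156, 450 and 5158 CPM in the CM4 spots of MI day 3 and the MI day 7 sections and 503 and 441 CPM in those of the sham sections, so that MI day 7 replicate 1 lay between the sham values. Macrophage markers reached 1124, 205 and 244 CPM there, against 136 and 125 CPM. The blood markers, given above, were higher in CM4 than in CM1 spots of both sham hearts, lower in MI day 3 and close to equal in the MI day 7 sections. With haemoglobin genes also left out of the total, the median interaction was -0.14. The part of the other markers in the interaction was not tested.

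FB-dominant spots (22 to 266 per section) were compared with CM1-dominant spots in the same way, and this too describes classes made from the same values. Of 49 members, 41 passed as lower and none as higher, against 5.65% of all genes lower and 14.7% higher (limma, 13498 genes). The same number, 41, was lower in every section (9.54% of all genes), and the median log2 change was -0.38 against 0.08 for all genes. All 8 members of complex III and all 17 of complex V passed, with 5 of 8 in complex II and 11 of 16 in complex IV. Without MI day 7 replicate 2, 14 passed (1.96% of all genes). Without replicate 1, 27 did (3.6%), and with mt- genes kept in the total, 27 did (3.42%). FB spots still held 22359 to 37270 CPM of cardiomyocyte markers, against 37140 to 43874 in CM1 spots, and 7705 to 20336 CPM of fibroblast markers, against 3185 to 4935. Macrophage, mural, endocardial and atrial markers were also higher in FB spots of every section, and endothelial markers lower. In MI day 3 macrophage markers were 1845 against 344 CPM and atrial markers 17689 against 4087 CPM. The part of the markers was not tested.

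The 5 largest falls were those of Cox6a2, Cox8b, Cox7a1, Uqcrc2 and Atp5g1. Cox6a2 measured 2703, 2344, 3510, 3301 and 3474 CPM in the CM1 spots and 2028, 1119, 2824, 2352 and 2196 CPM in the FB spots of sham day 3, MI day 3, sham day 7 and MI day 7 replicates 1 and 2. It fell by 0.59 ± 0.11 on the log2 scale (SE, adjusted p = 0.00249 by limma). Cox8b measured 2058, 1632, 2586, 2309 and 2348 CPM in CM1 spots and 1725, 715, 2202, 1699 and 1508 CPM in FB spots, and fell by 0.55 ± 0.12 (SE, adjusted p = 0.00816). Cox7a1 fell by 0.49 ± 0.09, Uqcrc2, a core protein of complex III, by 0.46 ± 0.08, and Atp5g1 by 0.45 ± 0.10. The fall was largest in MI day 3 for each of these 5 genes.

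The 8 members that did not pass were Cox4i2, Cox6a1, Cox6b2, Cox7a2l, Cox8a, Sdhaf1, Sdhaf2 and Sdhaf3. Cox6a1 measured 850, 954, 821, 707 and 783 CPM in CM1 spots and 840, 960, 868, 851 and 928 CPM in FB spots, a log2 change of 0.12 ± 0.07 (SE, adjusted p = 0.271 by limma). Cox8a measured 1413, 1667, 1339, 1128 and 1409 CPM in CM1 spots and 1461, 1373, 1429, 1258 and 1403 CPM in FB spots, a log2 change of 0.00 ± 0.08 (SE). Cox7a2, unlike them, passed as lower, at -0.29 ± 0.09 (SE, adjusted p = 0.0385). The FB minus CM1 difference in the log2 ratio of Cox6a2 to Cox6a1 ran from -1.08 to -0.39 over the 5 sections.

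In space, neighbouring spots were more alike, relative to the spread within their section, in the MI sections than in the sham sections. Moran's I, which is near 0 for a random layout and 1 for a smooth one, was 0.376 and 0.405 for the summed members in the sham sections of days 3 and 7, and 0.810, 0.543 and 0.674 in MI day 3 and MI day 7 replicates 1 and 2. The share of single spots ran from 5.11% to 11.5% in sham day 3 and from 2.29% to 10.8% in MI day 3. At day 7 it ran from 6.17% to 13.6% in the sham section, and from 4.99% to 12.5% and 2.41% to 12.95% in the MI sections. On the spot maps, low spots formed a patch reaching inwards from 1 edge in MI day 3, a patch at 1 edge in MI day 7 replicate 2 and smaller patches in replicate 1.

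**Figure D5:**
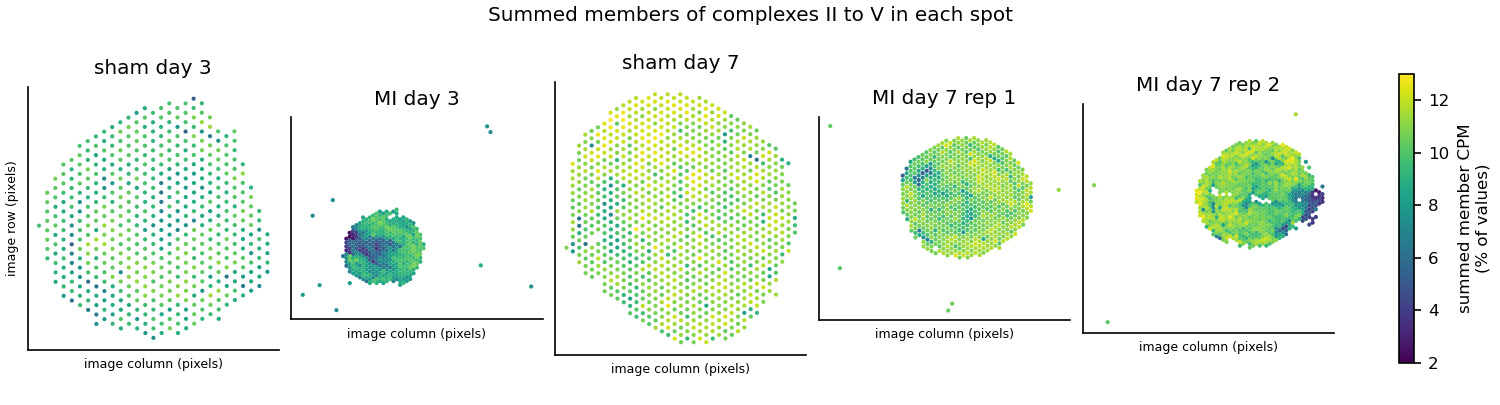
Summed CPM of the members as a percentage of all non-mitochondrial values (colour, on the same scale in all panels) in every spot of the 5 sections. Axes are image column and row in pixels, with their own scale in each panel, and points away from the tissue are detached spots. Low spots (dark) form a patch in MI day 3, where the lowest spot was at 2.29%.

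The 4 complexes varied together from spot to spot. Over the spots of single sections, Spearman's rho was 0.783 to 0.941 between complexes IV and V, 0.681 to 0.915 between III and V and 0.398 to 0.797 between II and V, with MI day 3 the highest each time. The values of a spot share 1 total and 1 depth, so these are descriptions. The summed members had a rho of 0.651 to 0.774 with the summed scores of the 5 cardiomyocyte states and of 0.801 to 0.948 with the summed Nduf genes. By gene, rho with the cardiomyocyte score was 0.498 to 0.627 for Cox6a2, 0.338 to 0.538 for Cox8b and 0.295 to 0.517 for Cox7a1, and positive for Cox7a2 (0.231 to 0.518). For Cox6a1 it lay between -0.156 and 0.199, and for Cox8a between -0.084 and 0.375, with MI day 3 the highest for both.

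Among classes with at least 20 spots in a section, the lowest level of the members was met in the 20 macrophage-dominant spots of MI day 3. There they gave 4.05% of values, against 8.999% in the 26 such spots of sham day 3. Macrophage markers summed to 9336 CPM in the former and 390 CPM in the latter, and cardiomyocyte markers to 15748 and 35768 CPM. Fibroblast markers summed to 15708 and 5631 CPM and atrial markers to 5484 and 594 CPM. The ratio of Cox6a2 to Cox6a1 was -0.33 and 1.76 there, and that of Cox8b to Cox8a -1.46 and 0.60. In the same order, FB-dominant spots of MI day 3 and sham day 3 gave 5.81% and 8.70%, EndoEC-dominant spots 6.58% and 8.22%, EC-dominant spots 7.42% and 9.55% and CM1-dominant spots 9.18% and 10.2%. CM4-dominant spots gave 7.11% and 9.21%. Each of the 6 classes with at least 20 spots in both sections was thus lower in MI day 3 than in sham day 3, with no replicate. Markers differed in these classes too. In FB spots macrophage markers summed to 1845 and 144 CPM, and in EndoEC spots blood markers to 33250 and 6045 CPM. The part of the markers was not tested. At day 7, CM1 spots gave 11.6% in the sham section and 11.1% ± 0.125 (SD, n = 2) in MI, and FB spots gave 10.3% and 8.41% ± 0.918 (SD, n = 2).

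Other genes of the pathway were taken from lists of 3 subunits or electron carriers outside the prefixes, 30 assembly factors and 15 regulators, of which 14 were tested. Across days, no gene of these lists passed between MI and sham. Ndufa4, now counted as a complex IV subunit, measured 3662 and 4492 CPM under sham surgery and 2789, 4207 and 3977 in the MI sections (-0.25 ± 0.13 SE). Cyc1, the cytochrome c1 of complex III, had -0.16 ± 0.09 (SE), and Cycs, which is cytochrome c itself, -0.39 ± 0.14 (SE, adjusted p = 0.41 by limma). At day 7 against day 3, 1 of 30 assembly factors passed, against 1.44% of all genes, so that this single gene is no result about the list. It was Higd1a, a hypoxia-inducible protein of complex IV, which rose by 0.52 ± 0.08 (SE, adjusted p = 0.0461 by limma), from 393 and 307 CPM to 545, 442 and 466 CPM. Ndufa4, Cycs and Cyc1 had estimates of 0.44, 0.42 and 0.28.

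In FB against CM1 spots, all 3 subunits, 9 of 30 assembly factors and 5 of 14 regulators passed, each lower in FB spots, against 5.65% of all genes lower. Among the assembly factors, Uqcc1 (complex III), Lrpprc (which stabilizes mitochondrial mRNA) and Cox10 (haem synthesis) had the largest falls, of 0.64, 0.63 and 0.55. The regulators that passed were Ppargc1a, a coactivator of mitochondrial biogenesis, which fell by 0.61 ± 0.14 (SE, adjusted p = 0.00987 by limma), Esrrg, Perm1, Tfam and Esrra. Esrra, an oestrogen-related receptor, fell by 0.31 ± 0.10, and Tfam, the transcription factor of mitochondrial DNA, by 0.31 ± 0.09. Gabpa (-0.11 ± 0.10) and Nrf1 (0.33 ± 0.14), which here is nuclear respiratory factor 1 and not the factor Nfe2l1 that the study calls Nrf1, did not pass. Between CM4 and CM1 spots no gene of the 3 lists passed.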

How the data were processed

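Visium libraries of 5 sections were used. Space Ranger (version not given in the sources used here) aligned the reads to mm10/GRCm38, and Seurat with sctransform processed the spots, per the labels and the paper. The authors deposited raw UMI counts for sham day 3, and for the other 4 sections sctransform-corrected counts, a score in whole numbers with depth modelled out. The deposited metadata gave raw UMI counts, spot positions and 11 label-transfer scores, a fraction from 0 to 1. Raw depth ran from 11396022 to 37492530 UMIs per section. Counts not corrected by the authors (sham day 3) set against corrected ones could shift values, so sctransform 0.4.2 was run on that table as an alternative.

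Each spot was scaled to CPM over the 13698 shared genes that are not mt- genes, and spots were averaged per section or per section and score class with at least 20 spots. The log2(mean CPM + 1) values were fitted with limma 3.58.1 (R 4.3.3, trend on), for genes reaching 1 CPM in 2 or more columns, two-sided with Benjamini-Hochberg adjustment and a threshold of 0.05. On this scale a fold change of a low gene is understated. A count test was not used, since of the tables used here 1 held raw counts. Class fits kept sections as blocks. Exact Poisson intervals cover counting error only, and UMI totals of corrected tables give no depth.

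Named were the isoform pairs, members past the threshold (if over 10, the 5 largest changes), and the 3 largest rises and falls among members of at least 50 CPM with 1 direction in every section. Members, gene lists, motifs and tests were chosen with earlier results of these data known. Genes whose reads can fall on copies are uncertain: Atp5c1, Atp5k, Atp5l and Uqcrh have named pseudogenes in GENCODE vM21, and Atp5o is the name of 2 overlapping loci. Alternatives were mt- genes kept, mt- and haemoglobin genes left out, median-of-ratios scaling, ratio of sums, pseudocount 5, no filter, a highest score of at least 0.5, each section left out, and, chosen after seeing the data, spots under 5000 raw UMIs left out, the sctransform run and isoform differences within day.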

Additional observations from a re-analysis of the deposited data

Results flagged for a closer look

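The CM4 minus CM1 difference of Cox6a1 differed between MI and sham sections by 0.48 on the log2 scale (limma interaction, adjusted p = 0.0312), and it was higher in 3 of 3 MI sections. For Cox8a the mean difference was 0.16 in MI and -0.16 in sham, with 3 of 3 and 2 of 2 sections on their side, and the interaction had an adjusted p of 0.202. The log2 ratio of Cox8b to Cox8a was lower in CM4 than in CM1 spots of every MI section (mean -0.53) and higher in both sham sections (mean 0.14), a difference that was not tested.

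The other opposite directions rest on 1 section on one side and were not tested. Cox4i2 was lower in MI than sham at day 3 (-0.0895) and higher at day 7 (mean 0.31). Cox7a2l was higher in MI at day 3 (0.10) and lower at day 7 (-0.11). From day 3 to day 7, Cox6a1 differed by 0.0300 in sham and by -0.30 in MI sections, Sdhaf3 by -0.0500 and 0.30, and Sdhc by -0.0439 and 0.0720.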

How the results depend on the processing

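No paired analysis was possible between the groups, since no label pairs their sections and replicate numbers only count sections within a group. The class comparisons had the section as a block in their fits. No member was called between MI and sham across days, at day 7 or in CM1 spots under any alternative run. With mt- genes kept in the total, the median of members was -0.18 at day 7 and -0.15 in CM1 spots, where that of all genes moved as well, 9 members were higher at day 7 against day 3 and 16 lower in CM4 against CM1 spots at an unadjusted p under 0.05 (26 and 38 in the main scaling), 0 members were called in CM4 against CM1 spots, 27 were called lower in FB against CM1 spots, and in the CM4 minus CM1 gap 2 were called higher and the median reversed to 0.0835. Median-of-ratios scaling called 3 members higher at day 7 against day 3 (median 0.41) and 3 lower in CM4 against CM1 spots (0.61% of all genes), and 0 higher in the gap (median -0.20). In CM4 against CM1 spots 0 members were called without haemoglobin genes, with pseudocount 5, with no filter, without spots under 5000 raw UMIs and with the sham day 3 table corrected. A highest score of at least 0.5 left 0 called higher in the gap. The cause of these changes was not tested.

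Leaving out each section gave, at day 7 against day 3, 0 to 1 members called higher, 0 to 1 lower and medians of 0.21 to 0.32, and at day 7 alone medians of -0.11 to -0.07 and in CM1 spots medians of -0.14 to -0.07 (-0.14 without sham day 7). It gave 0 to 3 called lower in CM4 against CM1 spots, 14 to 40 in FB against CM1 spots, and in the gap 0 to 1 higher, 0 to 9 lower and medians of -0.195 to -0.0774. With day ignored, the difference in Cox6a2 to Cox6a1 ranged from -0.33 to 0.20, reversed without MI day 3 (0.20) or sham day 7 (0.06), and that in Cox8b to Cox8a from -0.49 to 0.0641, reversed without MI day 3 (0.0641). These left-out means set unlike days against each other by construction, and the differences within day averaged -0.30 and -0.42. MI against sham at day 7 could not be fitted without sham day 7 and had no test without either MI section. With mt- genes kept, every complex gave a smaller share by construction, and a second ring of neighbours lowered Moran's I in all 5 sections. Of the tables used here, that of sham day 3 gives raw depth per gene, and with 5 sections the fits had few degrees of freedom.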
